A study of Rattus norvegicus with 8 samples.

Results

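The 44 genes described here drive or mark the cell division cycle: cyclins and their kinases, inhibitors of those kinases, the replication machinery, and the proteins of the mitotic spindle and of cytokinesis. They form a list of symbols. A member was measured where a probe set of the array was annotated with its symbol alone, and where a gene had several, the brightest by its mean over the 8 arrays was taken. This gave 41 of the 44 members, among 18166 genes measured in the same way. Ccnd3, Birc5 and Cenpe had no probe set under this rule, so no signal is given for them; their promoter windows are counted with the others.

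The study hybridised RNA of thoracic spinal cord to 8 Affymetrix Rat Gene arrays. The animals were male Long Evans rats that weighed 400 g and were about 175 days old. Their thoracic cord had been injured (SCI, 4 arrays) or they had undergone a sham laminectomy (sham, 4 arrays), and the labels count 4 animals in each group. Every rat ate chow during 4 weeks of recovery and a high-fat diet afterwards (40% fat, 46% carbohydrate, 15% protein, 4.54 kcal/g), so the diet was common to both groups. The labels give a total of 8 weeks that can be read as the study or as the diet, and they name the tissue as segments 10 to 11 in one place and 11 to 12 in another. They do not give the level of the lesion, so the distance of the sampled segments from it is not known. Injured cord below means the sampled cord of SCI rats. The cord was whole tissue, in which neuron and mature oligodendrocyte markers lay well above the median signal of all genes, 4.74 on the log2 scale. In such bulk RNA, a different number of cells of a type and a different amount of RNA per cell cannot be told apart.

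A dividing cell passes through a first gap phase (G1), DNA synthesis (S), a second gap phase (G2) and mitosis. D-type cyclins with the kinases Cdk4 and Cdk6 start the passage through G1 by phosphorylating the retinoblastoma family, which frees E2F factors to switch on replication genes. Genes needed late, in G2 and mitosis, are switched on by factors that bind CCAAT boxes and an element called the cell cycle genes homology region (CHR). In the adult cord most neurons and mature oligodendrocytes do not divide, whereas microglia, infiltrating leukocytes, oligodendrocyte precursors, astrocytes, vessel cells and fibroblasts can.

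Promoter sequences are shown for 4 members because 3 of them (Mki67, Top2a and Mcm6) rose in injured cord while Cdk1, which shares motifs with them, did not pass the test. The windows run 5′ to 3′ from 250 bases before to 50 bases after the annotated start, on the gene's strand, and come from RefSeq on the GRCr8 build. Capitals mark CCAAT (the CCAAT box), TTTGAA (the CHR) and the E2F core, each searched on both strands, so that ATTGG is a CCAAT box and the letters TTCAAA are a CHR. The E2F core was searched as TTGGCGC with its 3 variants, the first of them TTCCCGC, the second TTCGCGC, the third TTGCCGC.
Mki67 (chr1:199952544-199952843, minus strand): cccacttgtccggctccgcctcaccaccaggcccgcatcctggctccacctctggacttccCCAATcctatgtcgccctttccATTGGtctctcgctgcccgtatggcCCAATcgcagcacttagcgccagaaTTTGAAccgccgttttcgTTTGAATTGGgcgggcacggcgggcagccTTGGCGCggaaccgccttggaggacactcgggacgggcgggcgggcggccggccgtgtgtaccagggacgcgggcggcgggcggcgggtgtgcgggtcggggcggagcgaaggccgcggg
Top2a (chr10:84473044-84473343, minus strand): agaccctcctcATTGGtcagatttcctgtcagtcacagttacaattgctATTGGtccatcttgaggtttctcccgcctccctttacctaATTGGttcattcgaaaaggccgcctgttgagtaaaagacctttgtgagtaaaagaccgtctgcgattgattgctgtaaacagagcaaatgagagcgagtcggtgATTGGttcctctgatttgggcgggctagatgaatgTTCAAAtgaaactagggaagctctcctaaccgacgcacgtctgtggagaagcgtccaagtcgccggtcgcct
Cdk1 (chr20:19265043-19265342, plus strand): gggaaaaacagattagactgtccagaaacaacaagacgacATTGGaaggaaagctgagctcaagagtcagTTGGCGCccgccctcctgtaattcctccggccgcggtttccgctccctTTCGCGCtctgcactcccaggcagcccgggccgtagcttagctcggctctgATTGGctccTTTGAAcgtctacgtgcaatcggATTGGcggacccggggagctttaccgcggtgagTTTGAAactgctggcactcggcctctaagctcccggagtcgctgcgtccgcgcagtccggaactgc
Mcm6 (chr13:42404303-42404602, minus strand): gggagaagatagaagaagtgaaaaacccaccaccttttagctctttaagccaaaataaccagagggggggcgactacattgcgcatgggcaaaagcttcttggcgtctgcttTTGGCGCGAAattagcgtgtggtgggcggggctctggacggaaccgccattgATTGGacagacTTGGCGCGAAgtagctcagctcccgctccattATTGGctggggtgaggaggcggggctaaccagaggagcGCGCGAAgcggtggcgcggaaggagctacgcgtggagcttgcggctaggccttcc
The Mki67 window held 4 CCAAT boxes, 2 CHR elements and 1 E2F core, with 1 CHR and 1 CCAAT box overlapping. The Top2a window held 4 CCAAT boxes and 1 CHR, and the Cdk1 window 3 CCAAT boxes, 2 CHR elements and 2 E2F cores. Mcm6 had 2 CCAAT boxes and 5 E2F matches, 4 of which overlap in pairs on opposite strands.

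Promoter windows were found for 33 of the 44 members, 34 windows in all because Cdkn3 had 2. Both Cdkn3 windows held 3 CCAAT boxes and 1 CHR at the same spacing. Both are counted, among the G2 windows and among those of members that did not pass. The CHR and the CCAAT box stood together in 7 of 10 windows of G2 members and in 8 of 13 windows of mitosis members, against 7.41% of all 33469 windows. Those 13 include the windows of Birc5, which held both, and of Cenpe, neither of which was measured. The E2F core was found in 6 of 7 windows of replication members, against 9.52% of all windows. Of the 10 members that rose, Ccnd2, Ccna2 and Aurkb had no window, and 4 of the 7 windows left were of Mcm genes, all 4 with an E2F core. In all, 6 of these 7 windows held an E2F core and 2 of 7 a CCAAT box with a CHR. Among measured members that did not pass the test, 6 of 24 windows held an E2F core and 12 of 24 a CCAAT box with a CHR. These are matches of letters in a short window, described without a test.

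SCI was compared with sham to ask which of these genes differed in injured cord. Of the 41 members, 10 rose in SCI and 31 did not pass the test. Those that rose were Mki67, Top2a and Ccna2 of the G2 group, Aurkb of the mitosis group, Mcm2, Mcm3, Mcm5 and Mcm6 of the replication complex, and the G1 genes Ccnd2 and Cdkn2c. The test was limma over all 18166 genes with Benjamini-Hochberg adjustment, and a gene passed at an adjusted p under 0.05. The share of members called higher was 24.4%, and the share of all genes called higher was 7.1%. No member was called lower (0 of 41), where 7.06% of all genes were, and 2 members (Rrm2 and Ccne2) were lower at an unadjusted p under 0.05. At that unadjusted threshold 14 of the 41 members were higher. Of all 18166 genes, 2267 were higher and 2583 lower at it. The median difference, SCI minus sham, was 0.20 over the members and -0.01 over all genes, both as log2. Differences were positive for 32 of 41 members and for 47.9% of all genes. The members were dimmer than all genes as a set (median signal 3.99 against 4.74), and no share was taken among genes of like signal.

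The 10 rises were of modest size, from 1.30-fold to 2.32-fold, and 1 of them, Mki67, reached 2-fold. Groups did not overlap in 8 of these 10, and over all members in 8 upward (19.5%) and 1 downward, against 9.36% and 10.9% of all genes. The signal was low: 33 of the 41 probe sets, and 9 of the 10 that rose, had a mean below the median of all genes. RMA, the authors' normalization, tends to compress dim probe sets, so a fold here can understate the change. The 31 other members had 95% intervals within a 2-fold change in either direction, and for 18 of them the interval lay within 0.5 of 0 on the log2 scale.

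The count of 10 depended on single arrays. It was 6 without SCI 2, 6 without SCI 3 and 7 to 10 without any other array. It was 4 (Mki67, Top2a, Ccnd2 and Mcm6) when SCI 3, sham 1 and sham 2, which stood apart from the rest on the second principal component of all genes, were left out together. With the number in the sample title as a covariate, whose meaning the labels do not give, 6 members were higher and 1, Rrm2, was lower. Calls over all genes fell as well, from 1290 higher genes to 813 with this covariate and to 563 without the 3 arrays. Whether the members lost more calls than other genes was not tested. Mki67, Top2a and Ccnd2 passed in all 15 of the alternative settings tried, Cdkn2c and Mcm6 in 14, Aurkb in 13, Mcm2 and Mcm5 in 9, Ccna2 in 6 and Mcm3 in 5.

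**Figure D1:**
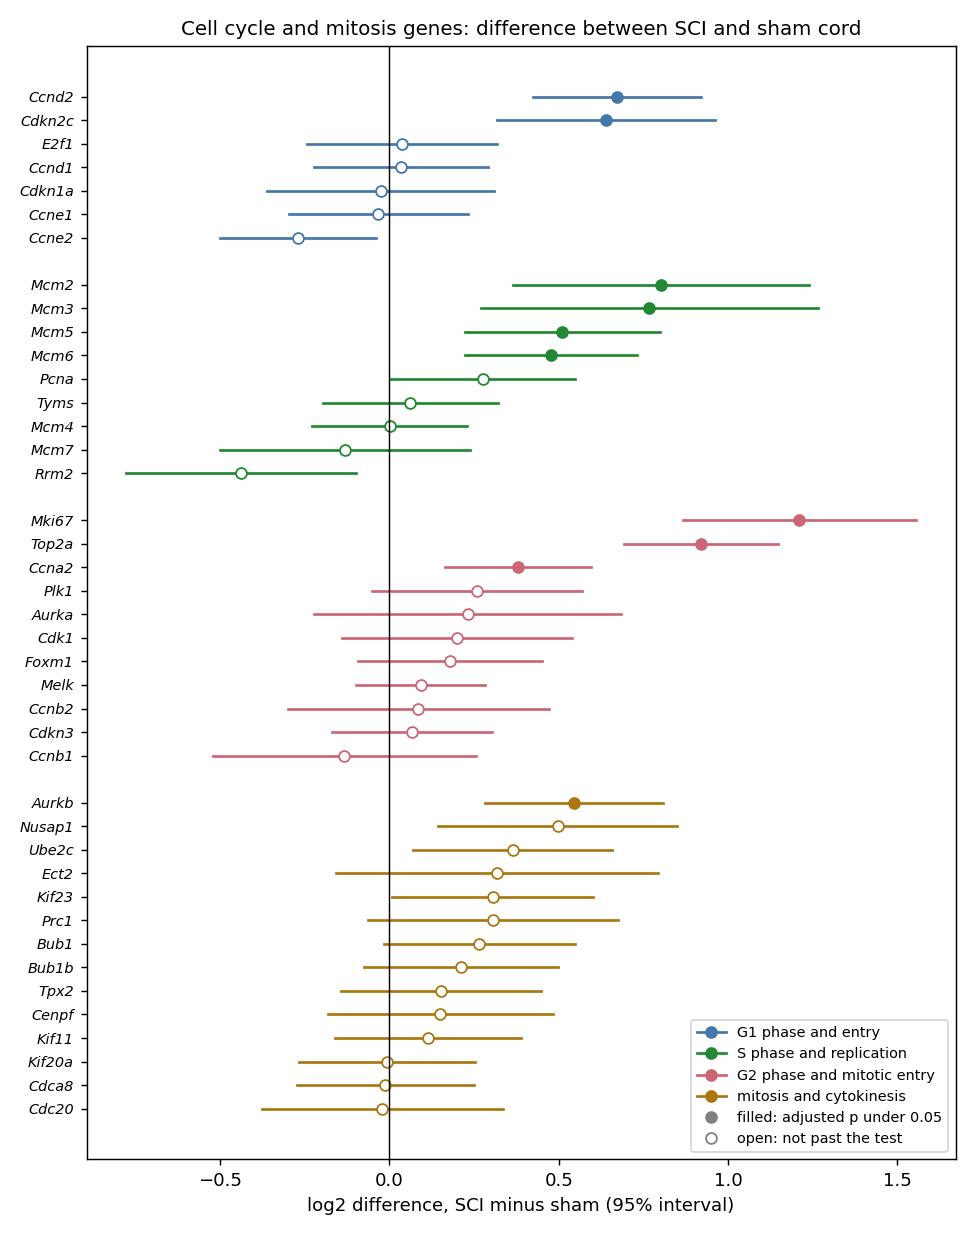
Log2 difference, SCI minus sham, of the 41 measured members, grouped by cycle phase. Points are limma estimates from 4 arrays against 4, lines are 95% intervals, and filled points passed at an adjusted p under 0.05. The 10 filled points lie between 0.38 and 1.21, and no filled point lies below 0.

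The G2 group held the largest differences. Mki67, the Ki-67 protein that coats mitotic chromosomes and is the standard stain for cycling cells (probe set 17637913), had log2 signals of 5.44, 5.29, 5.40 and 4.72 on SCI arrays 1 to 4 and of 3.96, 3.94, 4.19 and 3.93 on sham arrays 1 to 4. All 4 SCI arrays lay above every sham array, and SCI 4 was the lowest of the injured arrays. The mean went from 4.00 ± 0.12 to 5.22 ± 0.33 (log2, SD, n = 4), a difference of 1.21 (SE 0.16, limma adjusted p = 6.7e-04) or 2.32-fold.

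Top2a, the topoisomerase that untangles replicated DNA before chromosomes separate (probe set 17660863), gave 3.72, 3.60, 3.70 and 3.63 in SCI and 2.62, 2.83, 2.59 and 2.92 in sham. The injured arrays were close together, with an SD of 0.06, and clear of all sham arrays. The difference was 0.92 (SE 0.10, limma adjusted p = 3.0e-04), or 1.89-fold, and it had the smallest adjusted p of the members. Ccna2, the cyclin A of S and G2 phase, gave 3.79, 3.85, 3.85 and 3.71 in SCI against 3.60, 3.28, 3.37 and 3.43 in sham. The groups did not overlap, by a small margin between SCI 4 and sham 1. Its difference was 0.38 (SE 0.10, limma adjusted p = 0.026), and it lost its call without any 1 of SCI 1, SCI 2, SCI 3, sham 2, sham 3 or sham 4 (0.059 to 0.072), with a trended and robust fit (0.064), with the title number as covariate (0.15) and without SCI 3, sham 1 and sham 2 together (0.11).

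The kinase and B-type cyclins that carry cells into mitosis did not pass. Cdk1, the mitotic kinase (probe set 17754704), gave 3.33, 2.51, 2.79 and 2.82 in SCI and 2.62, 2.67, 2.78 and 2.59 in sham. SCI 1 stood above the other arrays, SCI 3 and SCI 4 lay just above the highest sham array, and SCI 2 lay below every sham array. The difference was 0.20 with a 95% interval of -0.14 to 0.54 (limma adjusted p = 0.47). Ccnb1, a cyclin that activates Cdk1, gave 3.91, 3.43, 3.72 and 3.05 in SCI and 3.82, 3.82, 3.50 and 3.51 in sham, and the groups overlapped. Its difference was -0.13, with an interval of -0.52 to 0.25. Ccnb2, the other measured B-type cyclin, had 0.08 (-0.30 to 0.47) on the probe set used and 0.35 (SE 0.12, adjusted p = 0.073 over all probe sets) on its dimmer second probe set.

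Other regulators of mitotic entry had intervals that crossed 0. Foxm1, the transcription factor of late cycle genes, had a difference of 0.18 (SE 0.12), and Plk1, a kinase of mitotic entry, 0.26 (SE 0.14). Aurka, the kinase of spindle poles, had 0.23 (SE 0.20), with sham values spread from 3.61 to 4.53. Melk, a kinase of proliferating cells, and Cdkn3, a phosphatase that acts on cyclin-dependent kinases, had 0.09 and 0.07. Over the 11 genes of this group 3 rose (27.3%) and 0 fell by limma, against 7.1% and 7.06% of all genes. At an unadjusted p under 0.05 as well 0 fell, where 2583 of all 18166 genes were lower. The group median was 0.20. On every SCI array, 6 to 8 of the 11 lay above the highest sham array, where 24.6% to 26.6% of all genes did.

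**Figure D2:**
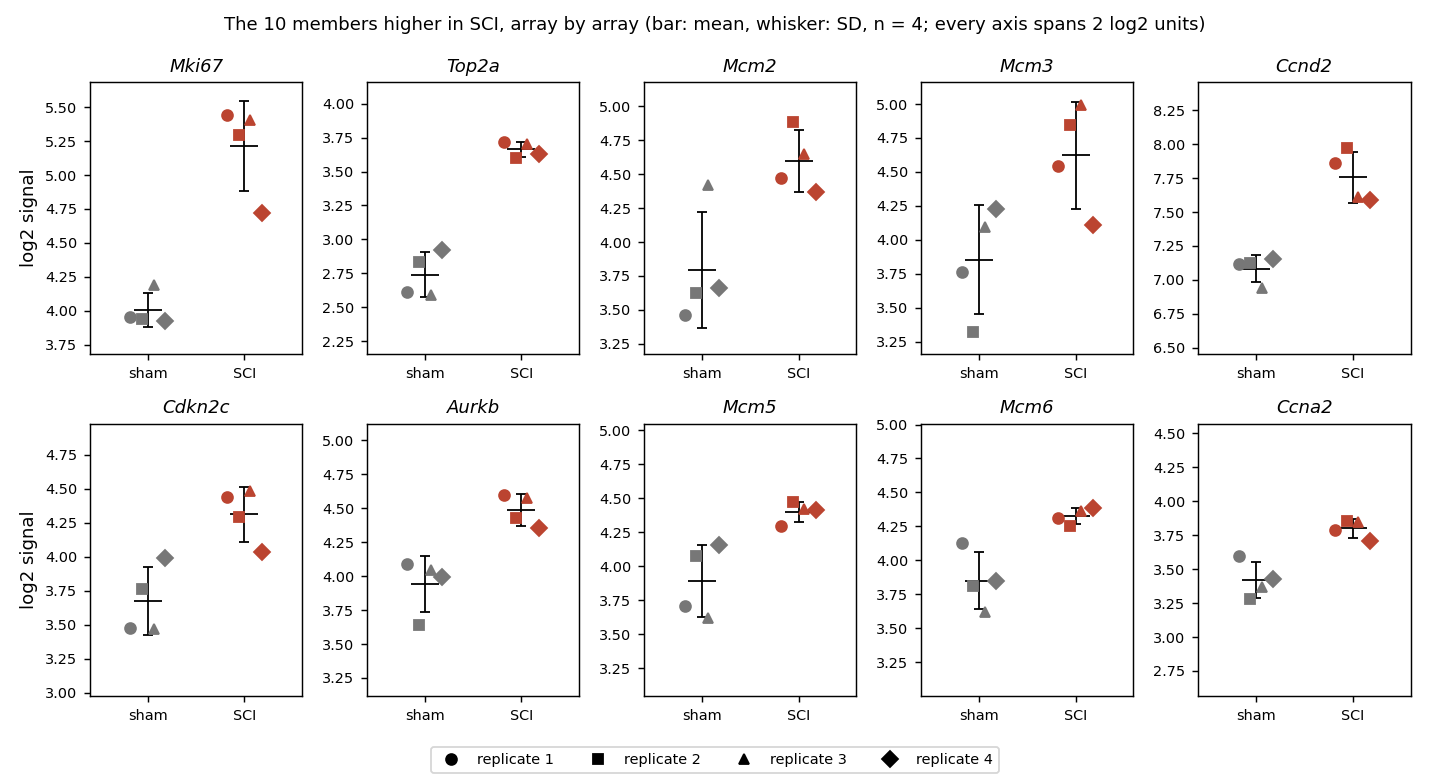
Log2 signal of the 10 members that rose, for each of the 8 arrays. Marker shapes number the arrays within a group and pair none, bars are means and whiskers SD (n = 4). SCI and sham arrays are apart in 8 panels and overlap for Mcm2 and Mcm3.

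Of 9 genes of DNA replication, 4 rose (44.4%) and 0 fell by limma, against 7.1% and 7.06% of all genes. Only Rrm2 was lower at an unadjusted p under 0.05. The 4 were subunits of the MCM helicase, the ring of Mcm2 to Mcm7 that unwinds DNA at the replication fork. Mcm6 (probe set 17683874) gave 4.31, 4.25, 4.37 and 4.39 in SCI and 4.13, 3.81, 3.62 and 3.84 in sham. Its injured arrays had an SD of 0.06 and lay above all sham arrays. The difference was 0.48 (SE 0.11, limma adjusted p = 0.019), and it was not past the test with the title number as covariate (0.12).

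Mcm5 gave 4.30, 4.47, 4.42 and 4.41 in SCI and 3.71, 4.07, 3.62 and 4.16 in sham. These groups did not overlap either, and the difference was 0.51 (SE 0.13, limma adjusted p = 0.025). Its call was lost without any 1 of SCI 2, SCI 3, SCI 4, sham 1 or sham 3 (0.0501 to 0.070), and without SCI 3, sham 1 and sham 2 together (0.15). Mcm2 gave 4.47, 4.89, 4.65 and 4.37 in SCI and 3.47, 3.62, 4.42 and 3.66 in sham. Sham 3 reached into the injured range, above SCI 4. The difference was 0.80 (SE 0.20, limma adjusted p = 0.021), not past the test without any 1 of SCI 2, SCI 3, sham 1, sham 2 or sham 4 (0.052 to 0.066). With SCI 3, sham 1 and sham 2 all left out, the difference was 0.53 (adjusted p = 0.26 by limma).

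Mcm3 gave 4.54, 4.84, 4.99 and 4.11 in SCI and 3.77, 3.32, 4.10 and 4.23 in sham, so that SCI 4 fell among the sham arrays. Its difference of 0.77 (SE 0.23, limma adjusted p = 0.045) was the least stable of the 10, lost on leaving out any 1 of SCI 1, SCI 2, SCI 3, sham 1, sham 2 or sham 3 (0.055 to 0.12), with quantile normalization (0.058), with median centring (0.053) and with the title number as covariate (0.10). With SCI 3, sham 1 and sham 2 all left out, the difference was 0.34 (adjusted p = 0.41 by limma). A second probe set of Mcm3 had 0.33 (SE 0.17, adjusted p = 0.24 over all probe sets). With both probe sets averaged, the difference was 0.55 and passed (SE 0.12, limma adjusted p = 0.014). The remaining ring subunits had differences of 0.00 (Mcm4, 95% interval -0.23 to 0.23) and -0.13 (Mcm7, -0.50 to 0.24). Whether Mcm4 and Mcm7 differed from the other subunits was not tested.

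Pcna, the sliding clamp of the replication fork, gave 7.00, 6.94, 6.95 and 6.64 in SCI and 6.55, 6.42, 6.58 and 6.87 in sham. SCI 1 to 3 were above all sham arrays, and SCI 4 was below sham 4. The difference of 0.28 (SE 0.12) did not pass (limma adjusted p = 0.18). Tyms, which makes thymidylate, had 0.06 (SE 0.12). Rrm2, the ribonucleotide reductase subunit that limits deoxynucleotide supply in S phase, gave 4.07, 3.75, 3.62 and 3.49 in SCI and 4.33, 4.24, 4.31 and 3.81 in sham. Only sham 4 reached into the injured range. Its difference of -0.44 (SE 0.15, limma adjusted p = 0.087) had the sign opposite to that of the 4 rising subunits, and it passed without SCI 1 (0.040) or without sham 4 (0.035). A second, dimmer probe set of Rrm2 had -0.04 (SE 0.19). The median over the 9 genes was 0.28.

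Of 7 genes of G1 phase, 2 rose (28.6%) and 0 fell by limma, against 7.1% and 7.06% of all genes. Only Ccne2 was lower at an unadjusted p under 0.05. Ccnd2, a D-type cyclin that activates Cdk4 and Cdk6 (probe set 17795115), gave 7.86, 7.97, 7.61 and 7.59 in SCI and 7.12, 7.12, 6.94 and 7.16 in sham. All injured arrays lay above all sham arrays. The mean went from 7.08 ± 0.10 to 7.76 ± 0.19 (log2, SD, n = 4), a difference of 0.67 (SE 0.11, limma adjusted p = 0.0031) or 1.59-fold. Among the 10 that rose it was the only probe set with a mean above the median of all genes.

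Ccnd1, the second measured D-type cyclin, gave 5.50, 5.60, 5.91 and 5.48 in SCI and 5.65, 5.70, 5.49 and 5.51 in sham. The groups overlapped, and the difference was 0.03 with a 95% interval of -0.22 to 0.29 (limma adjusted p = 0.90). The intervals of Ccnd1 and Ccnd2 (0.42 to 0.92) did not meet, although the difference between the genes was not tested. The E-type cyclins, which act with Cdk2 at the start of S phase, had -0.03 (Ccne1, SE 0.12) and -0.27 (Ccne2, SE 0.10, limma adjusted p = 0.12). For Ccne2 every SCI array, from 4.78 to 4.97, lay below every sham array, from 5.00 to 5.32. E2f1, the transcription factor released by the retinoblastoma protein, had 0.04 (SE 0.13).

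Of the kinase inhibitors among the G1 members 1 rose and 1 did not pass. Cdkn2c, the p18 inhibitor of Cdk4 and Cdk6, gave 4.44, 4.29, 4.49 and 4.03 in SCI and 3.48, 3.76, 3.47 and 3.99 in sham. The groups were apart, by a small margin between SCI 4 and sham 4. The difference was 0.64 (SE 0.15, limma adjusted p = 0.015), lost when SCI 3, sham 1 and sham 2 were left out together (0.17). Cdkn1a, the p21 inhibitor that p53 induces on DNA damage, gave 4.84, 5.15, 4.91 and 4.41 in SCI and 4.95, 5.00, 4.69 and 4.76 in sham. SCI 2 was the highest array and SCI 4 the lowest, and the difference was -0.03 (95% interval -0.36 to 0.31, limma adjusted p = 0.94). The median over the 7 G1 genes was 0.03, and it turned negative with median centring, with the title number as covariate and without SCI 3 (-0.05).

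Of 14 genes of mitosis and cytokinesis, 1 rose and 0 fell by limma, 7.14% against the 7.1% of all genes called higher. At an unadjusted p under 0.05, 4 of the 14 were higher and 0 lower, against 2267 and 2583 of all 18166 genes. Aurkb, the kinase of the chromosomal passenger complex that corrects chromosome attachment and drives cytokinesis (probe set 17647342), gave 4.60, 4.43, 4.57 and 4.36 in SCI and 4.09, 3.64, 4.05 and 3.99 in sham. Its groups did not overlap, and the difference was 0.55 (SE 0.12, limma adjusted p = 0.012). It was not past the test with the title number as covariate (0.076) or without SCI 3, sham 1 and sham 2 together (0.098). Cdca8, another subunit of the same complex, had -0.01 (SE 0.12).

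The 3 others at an unadjusted p under 0.05 were positive. Nusap1, a spindle microtubule protein, had 0.50 (SE 0.16, limma adjusted p = 0.065), and passed without SCI 4 (0.026) or sham 1 (0.049) and with dim genes removed (0.043). Ube2c, the ubiquitin-conjugating enzyme of the anaphase-promoting complex, had 0.36 (SE 0.13, adjusted p = 0.10 by limma). Kif23, a kinesin of the central spindle, had 0.31 (SE 0.13, adjusted p = 0.17 by limma).

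The other 10 genes of this group had smaller differences or a wide spread. Ect2, which acts in cytokinesis, and Prc1, which bundles midzone microtubules, had 0.32 (SE 0.22) and 0.31 (SE 0.17). The checkpoint kinases Bub1 and Bub1b, which delay anaphase until chromosomes are attached, had 0.26 (SE 0.13) and 0.21 (SE 0.13). Tpx2, a spindle assembly factor, had 0.15, the kinetochore protein Cenpf 0.15 and the spindle motor Kif11 0.11. Kif20a, a kinesin of cytokinesis, had -0.01, and Cdc20, which activates the anaphase-promoting complex, -0.02. The group median was 0.24, and all 14 probe sets had means below the median of all genes.

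**Figure D3:**
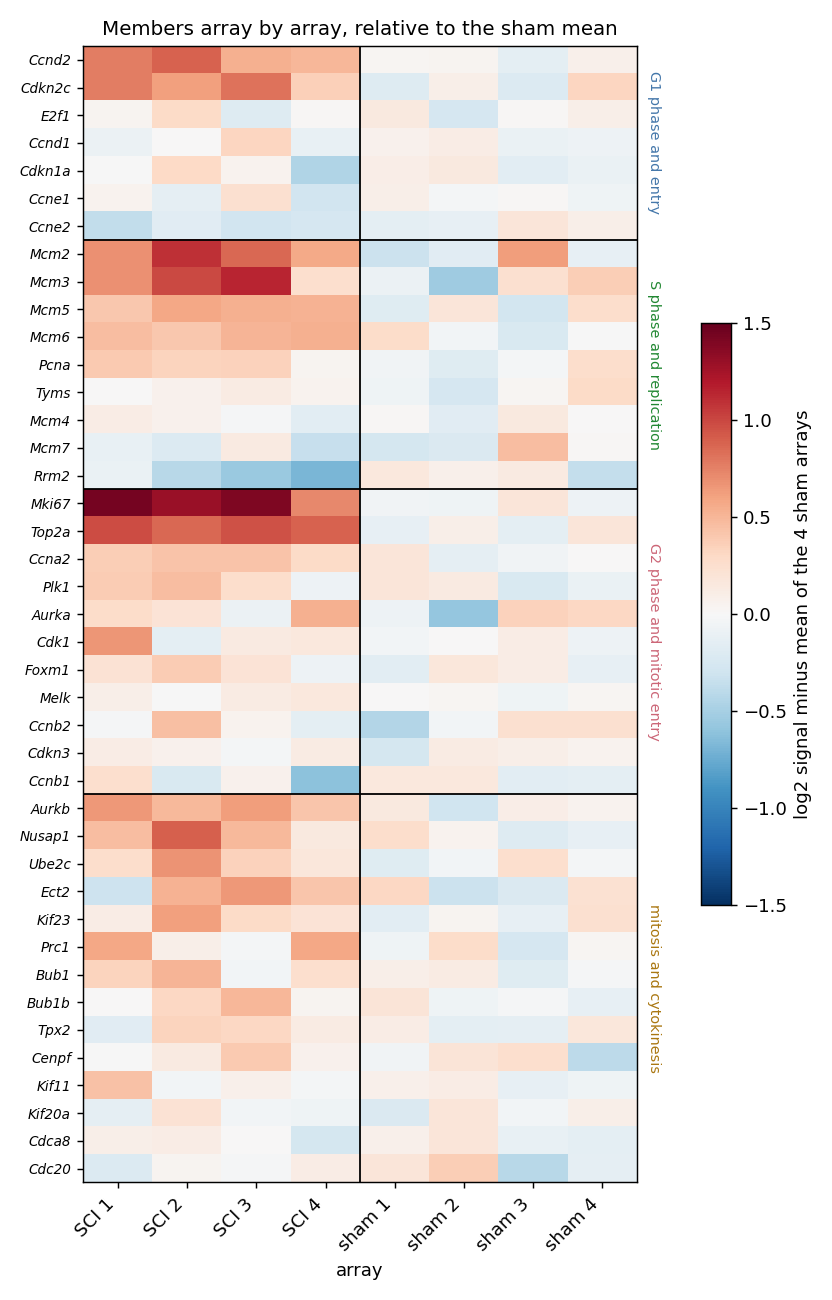
Log2 signal of each member on each of the 8 arrays, relative to the mean of the 4 sham arrays, with red above and blue below it. Rows are grouped by phase and ordered by difference. The strongest red cells are Mki67 on SCI 1 to 3, and SCI 4 has paler rows than the other injured arrays in Mki67, Mcm3 and Pcna.

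Array by array, the injured group was not uniform. Of the 41 members, 21 lay above the highest sham array on SCI 1, 24 on SCI 2, 24 on SCI 3 and 14 on SCI 4, or 51.2%, 58.5%, 58.5% and 34.1%. Over all genes the same shares were 24.6%, 26.2%, 26.6% and 25%. The mean log2 signal of the members was 4.10, 4.16, 4.12 and 3.95 on SCI arrays 1 to 4 and 3.82 to 3.87 on the sham arrays. SCI 4 was thus the injured array nearest to sham, and it held 2 of 9 replication genes above the highest sham array where the other injured arrays held 5 each. This place of SCI 4 was not particular to the members. On the first principal component of all genes SCI 4 was at 14.2, SCI 1 to 3 at 22.7, 30.2 and 24.3, and the sham arrays at -25.3 to -19.6.

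Markers of cell types moved in the same arrays. Beside the counts of this and the next paragraph, 7.1% of all genes were called higher and 7.06% lower. Of 14 macrophage and microglia markers, all 14 were higher (median 1.58), with array means of 7.80 to 8.23 in SCI and 6.30 to 6.60 in sham, and SCI 4 again had the lowest injured value. The leading markers, Cd68 and Tyrobp, differed by 4.17 and 1.89. Of 11 T and B lymphocyte markers, 4 were higher, Cd8b (2.58), Cd8a (1.48), Cd4 (0.95) and Cd3g (0.49). The T cell genes Cd3e, Cd3d, Lck and Cd2 were not past the test, at 0.13, 0.18, -0.10 and -0.10, the list median was 0.17, and 10 of the 11 had means below the median of all genes. Of 10 pericyte and fibroblast markers 4 were higher, led by Col1a2 (1.00) and Col1a1 (0.93), with array means of 6.74 to 7.13 in SCI and 6.09 to 6.54 in sham.

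Oligodendrocyte precursor markers rose in 3 and fell in 2 of 10 genes, led by C1ql1 (0.52) and Olig1 (-0.43), with array means of 7.12 to 7.13 in SCI and 6.95 to 7.10 in sham. These lists share genes: Pdgfra, which rose, is also among the pericyte and fibroblast markers, as is Cspg4, and Sox10, which fell, is also the lower Schwann cell marker. Of 9 astrocyte markers 2 were higher (Gfap 0.81, Gja1 0.59) and 1 lower, of 8 endothelial markers 1 was higher (Cdh5 0.68, while Flt1 had -0.40), and of 6 ependymal markers 0 were called by limma (0 at an unadjusted p under 0.05; Rsph1 had 0.19 and Cfap126 0.30). Of 9 Schwann cell markers 3 were higher (Scn7a 1.25, Pmp22 0.83, Ncmap) and 1 lower. Mature oligodendrocyte markers fell in 7 of 9 genes, led by Fa2h (-1.09) and Mog (-0.78), and neuronal markers in 10 of 10, led by Nefm (-0.62) and Syp (-0.58). The part of these shifts in the rise of the cell cycle genes was not tested.

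**Figure D4:**
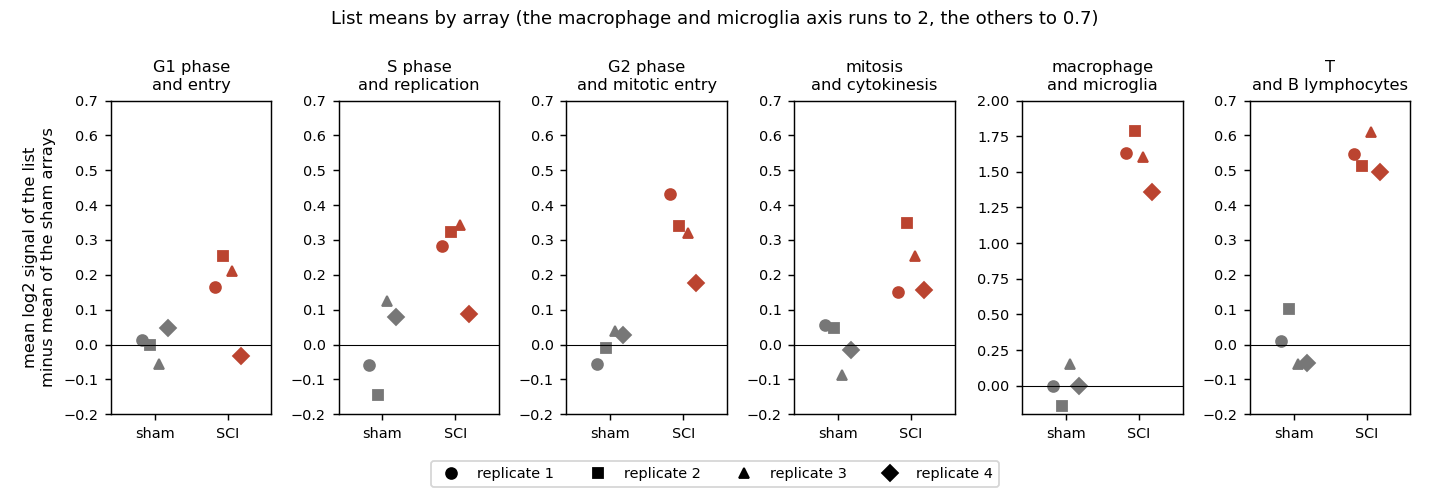
Mean log2 signal of the members of each phase, and of 2 marker lists, on each array, relative to the mean of the 4 sham arrays. Marker shapes number arrays within a group. The groups are apart in the G2, mitosis and both marker panels, and SCI 4 lies within the sham range in the G1 and S panels. In the T and B lymphocyte list 4 of 11 genes were called higher, and the median difference was 0.17. The macrophage panel has its own axis up to 2.

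Other cell cycle genes, listed by role, were read from the same test, in which 7.1% of all genes were higher and 7.06% lower. Of 28 further G1 and S phase genes 3 were higher (10.7%) and 1 lower. Cdk4, the G1 kinase that D-type cyclins activate, gave 8.16, 8.37, 8.06 and 7.95 in SCI and 7.33, 7.12, 7.14 and 7.17 in sham, groups far apart. Its difference was 0.94 (SE 0.11, limma adjusted p = 3.8e-04) and passed in all 15 alternative settings. Cdk6, the related kinase, gave 4.59, 5.14, 4.21 and 4.71 in SCI and 4.22, 3.34, 3.44 and 3.72 in sham, where SCI 3 and sham 1 met. Its difference was 0.98 (SE 0.22, limma adjusted p = 0.014). The third was E2f8, a repressor among the E2F factors (0.31, limma adjusted p = 0.034), which passed in 3 of 15 settings and lost its call on leaving out any 1 array but sham 3 (0.058 to 0.095) and in 5 of the other settings, among them the title number as covariate (0.12) and the removal of SCI 3, sham 1 and sham 2 together (0.19). The lower gene was Prim1, the catalytic primase subunit (-0.55, SE 0.11, limma adjusted p = 0.0069).

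Of 34 further G2 and mitosis genes 2 were higher (5.88%, against 7.1% of all genes) and 1 lower. Ttk, a spindle checkpoint kinase, had a difference of 0.60 (SE 0.12, limma adjusted p = 0.0087), and Pbk, a mitotic kinase, had 0.48 (SE 0.11, limma adjusted p = 0.017). Pbk passed in 10 of 14 settings, and was not past the test without SCI 1 or SCI 2 (0.052 each), with the title number as covariate (0.097) or without SCI 3, sham 1 and sham 2 together (0.16). The filter on dim genes removed both Ttk and Pbk (mean signals 2.68 and 2.72). Of the 19 genes of the list that it left, 0 were higher and 1 was lower. Over all genes left by that filter, 1454 were higher and 1570 lower. Cdc25b, the phosphatase that activates Cdk1 at mitotic entry, was lower at -0.52 (SE 0.12, limma adjusted p = 0.018). The list median was 0.06, and 30 of the 34 had means below the median of all genes.

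Of 16 further CDK inhibitors and p53 target genes 4 were higher (25%, against 7.1% of all genes) and 1 lower. Gadd45a and Gadd45g, growth arrest and stress genes, differed by 1.29 (SE 0.12, limma adjusted p = 9.9e-05) and 0.97 (SE 0.14), the p53-induced Tp53inp1 by 0.61 (SE 0.11) and the stress-responsive kinase Plk2 by 0.64 (SE 0.14). Another 11 did not pass, among them Ccng2 (0.38), Mdm2 (0.13), Phlda3 (-0.25) and Zmat3 (-0.31). Over the list 10 differences were positive and 6 negative. The lower gene was Cdkn1c, the p57 inhibitor (-0.45, SE 0.12, limma adjusted p = 0.025), which passed in 8 of 15 settings and lost its call without any 1 of SCI 1, SCI 4, sham 1, sham 2 or sham 4 (0.055 to 0.065), with the title number as covariate (0.062) and without SCI 3, sham 1 and sham 2 together (0.22). Of 13 pocket protein and DREAM complex genes 1 was higher, 7.69% against 7.1% of all genes. It was Rbl1, the p107 relative of the retinoblastoma protein (0.77, SE 0.15, limma adjusted p = 0.0058), while E2f4 and Tfdp2 had 0.34 and -0.30. Beside Pbk, Cdkn1c and E2f8, described with their own losses, Gadd45g, Tp53inp1, Plk2, Cdc25b and Rbl1 were not past the test without SCI 3, sham 1 and sham 2 together, at adjusted p of 0.057, 0.078, 0.080, 0.21 and 0.073, and Cdk6, Ttk and Prim1 were not past it with the title number as covariate (0.094, 0.053 and 0.053).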

How the data were processed

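Messenger RNA was measured in 4 SCI and 4 sham samples. The authors deposited log2 values per probe set, for which the submitters' processing notes name Affymetrix Expression Console and RMA, a method that corrects background, normalizes arrays and summarises probe sets. Its versions, settings and probe library: not given in the sources used here. Array medians lay between 3.73 and 3.81. The number of arrays limits precision, and no detection calls were used.

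Of 36685 probe sets, 18511 carried 1 symbol, 575 several and 17599 none here. For 291 genes with more than 1 probe set, the brightest by mean was kept. The 2 groups were fitted in limma 3.58.1 under R 4.3.3, by lmFit and eBayes with no covariate, and the script was checked on simulated data. Genes named in full were the members past the test and a set named regardless of result. Each other pathway list gave its 3 smallest p and all calls, and each marker list its 2 smallest p. Members, lists and alternatives were chosen with earlier results of these data known. Replicates were numbered in accession order and pair no samples. Alternatives were 2 scalings, a filter on dim genes, averaged probe sets, another variance model, the title number, and left-out arrays.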

Additional observations from a re-analysis of the deposited data

Results flagged for a closer look

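Of 82 group values examined (41 members in 2 groups of 4), 3 held an array whose gap to its nearest neighbour exceeded Dixon's critical share of the group's range, as chance gives in about 1 group in 20. Pcna on SCI 4 was 6.64, below the next injured array at 6.94, with the highest at 7.00. Rrm2 on sham 4 was 3.81, against 4.24 to 4.33 on the other sham arrays. Mki67 on sham 3 was 4.19, against 3.93 to 3.96 on the other sham arrays, and still below every SCI array.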

How the results depend on the processing

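Over 15 alternative settings, the 10 members that rose kept a positive difference in each, and 35 of their 150 results were no longer past the test; the causes were not tested. The covariate from the sample titles left 813 higher genes and 543 lower genes in all, among them 6 higher members and 1 lower member. Leaving out SCI 3, sham 1 and sham 2 together gave 563, 284, 4 and 0. Leaving out 1 array at a time gave 780 (without SCI 2) to 1283 lower genes, 6 to 10 higher members and 0 to 1 lower members (Rrm2, without SCI 1 or sham 4). The other alternatives gave 9 to 11 higher members, the filter on dim genes with 31 of the 41 members left. The G1 median changed sign with median centring (-0.0048), with the covariate (-0.021) and without SCI 3 (-0.054, against up to 0.082 without another array). The medians of the other 3 phases stayed positive throughout.

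Differences near 0 changed sign in 14 members, of which none was past the test in any setting. With quantile normalization Mcm4 was at -0.020. With median centring Ccnd1, E2f1 and Mcm4 were at -0.0048, -0.0028 and -0.039. With the covariate E2f1, Mcm4, Kif11 and Kif20a were at -0.021, -0.040, -0.018 and 0.086. Without the 3 arrays Cdkn1a, Mcm4, Tyms, Ccnb2, Cdca8 and Cdc20 were at 0.072, -0.068, -0.11, -0.15, 0.11 and 0.26. Leaving out 1 array at a time moved Ccnb1 from -0.26 to 0.026, Ccnb2 from -0.062 to 0.17, Ccnd1 from -0.062 to 0.082 and Ccne1 from -0.12 to 0.050. It moved Cdc20 from -0.16 to 0.10, Cdca8 from -0.060 to 0.071, Cdkn1a from -0.13 to 0.11, Cdkn3 from -0.021 to 0.11 and E2f1 from -0.048 to 0.11. It moved Kif20a from -0.081 to 0.052, Mcm4 from -0.055 to 0.052, Mcm7 from -0.22 to 0.023 and Tyms from -0.022 to 0.16. No paired analysis was possible because the labels give the groups no shared replicate numbers. Low signal limits what could be seen for most members, and an absence of division cannot be read from a difference near 0.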
